A study of Rattus norvegicus with 15 samples.

Results

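Actb, Gusb, B2m, Hprt1 and Sdha, 5 genes that laboratories use as internal standards, were followed through 3 stages of enamel formation in the rat. Each gene was taken by its probe: the custom probes CUST_4_PI421900130 and CUST_9_PI421900130 for Actb and Gusb, and the probes whose transcript accession belongs to B2m, Hprt1 or Sdha. These are 5 of the 38 RefSeq genes that can be named on an array of 38321 probes, and each had 1 probe. The tissue was the enamel organ of the mandibular incisor of 4-week-old Wistar Hannover rats, for which the labels name no treatment or genotype. It was sampled at the cervical loop, the secretory stage and the maturation stage, with 5 samples per stage and 15 one-colour (Cy3) arrays in all. The labels call the samples of a stage biological replicates and the design speaks of 5 rats, but no array is tied to a rat.

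The rat incisor grows throughout life, and its enamel organ is the epithelium that builds enamel. Progenitors lie in the cervical loop, ameloblasts of the secretory stage lay down a protein matrix, and ameloblasts of the maturation stage remove that matrix while mineral is added. Quantitative PCR compares a gene of interest with a reference gene measured in the same sample, on the assumption that the reference does not change between the conditions. The 5 genes serve unlike housekeeping tasks: Actb encodes the cytoskeletal protein beta-actin, Gusb the lysosomal enzyme beta-glucuronidase, B2m the light chain of MHC class I molecules, Hprt1 a purine salvage enzyme, and Sdha the flavoprotein subunit of succinate dehydrogenase, which works in the citric acid cycle and the respiratory chain. The question put to the arrays was how much each gene varied within a stage and between stages.

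All 5 probes belonged to a set of 12 custom probes with a common design number, each printed as 30 spots, and all 5 were well above background on all 15 arrays. Their lowest signals were at least 64.5 times the local background. On an array the spots of a probe had a median SD of 0.08 to 0.09 on the log2 scale, so the mean of 30 spots had a standard error of 0.01 to 0.02. The SD between arrays of a stage was 0.15 to 0.43, well above that error. Over the 15 arrays, 67.4% to 78.9% of spots exceeded background clearly by the scanner's own criterion. None of the 19 markers of enamel epithelium, mesenchyme, blood, endothelium or immune cells was named on the array, so the labelled tissue could not be checked against its markers. In such bulk samples fewer cells of a type and less RNA per cell cannot be told apart.

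The tissue label gave the stage. For 8 of the 15 arrays the sample title has secretory where the tissue label has maturation, or the reverse, so each direction that uses them rests on the tissue label. Title and tissue label agree for replicate 1 of both stages. Stages taken from the titles therefore mix arrays of both tissue labels. Maturation and secretory arrays with the same replicate number deviated together from their stage means, and a fit of these 10 arrays with the number as a block is given where it bears on a call. The pairing was read from these same values, and that fit leaves out the cervical loop arrays and their spread. Its p-values are therefore no separate support for a call. The cervical loop arrays had a scan day of their own, so in comparisons with them the scan day and the stage cannot be told apart. One scan held both other stages, with maturation replicate 5 and secretory replicates 1 to 3, and values within it are given beside the pooled ones. They rest on 1 maturation array, so they are given as values and not as tests. A level below is the log2 processed signal minus the 75th percentile of that array. Levels of different probes are not comparable, but differences between stages are. A difference of 1 is a 2-fold change, or about 1 PCR cycle.

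Hprt1 rose in maturation and was the least stable of the 5 genes between stages. Its levels were 2.73, 2.88, 2.75, 2.68 and 2.93 in cervical loop replicates 1 to 5. In the secretory stage they were 2.47, 2.31, 2.65, 2.75 and 2.62, and in maturation 4.80, 4.81, 4.95, 4.79 and 4.48. Every maturation array lay above every array of the other stages, while cervical loop and secretory arrays overlapped. The mean went from 2.56 ± 0.17 in the secretory stage to 4.77 ± 0.17 in maturation (SD, n = 5 each), a difference of 2.20 or 4.61-fold (SE 0.12, adjusted p = 7.87e-10). Maturation also stood 1.97, or 3.93-fold, above the cervical loop (adjusted p = 2.97e-09). Within the scan that held both stages, the 1 maturation array stood 2.00 above the mean of the 3 secretory arrays.

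Between cervical loop and secretory stage Hprt1 differed by -0.23 (95% interval -0.48 to 0.02, adjusted p = 0.106). This difference passed the threshold with quantile normalization (-0.32, adjusted p = 0.0192), with normexp background correction (-0.29) and without any scaling of the arrays (-0.67). With median scaling it was -0.011 (adjusted p = 0.956). By the SD within stages, pooled over the 3 stages, Hprt1 was also the most even of the 5 genes (0.15). In maturation alone its SD of 0.174 was above those of Gusb (0.169) and Sdha (0.161). Only 5.32% of all features tested had a smaller SD within stages, and 89.6% had a smaller range of stage means. Stage accounted for 98.1% of its variance over the 15 arrays.

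Actb was high in the cervical loop and fell in both later stages. Its levels were 6.51, 6.21, 6.07, 6.17 and 5.87 in the cervical loop. They were 5.29, 4.93, 4.67, 4.80 and 5.18 in the secretory stage and 5.53, 5.11, 5.38, 5.30 and 5.12 in maturation. All cervical loop arrays lay above all others, and the later stages overlapped. From 6.17 ± 0.23 in the cervical loop, Actb fell by 1.19 to 4.97 ± 0.26 in the secretory stage, 2.29-fold (SD, n = 5 each; SE 0.15, adjusted p = 7.63e-06). Maturation was lower than the cervical loop by 0.88, or 1.84-fold (difference -0.88, adjusted p = 0.000108). With median scaling that last difference was -0.44. It passed the threshold there, with quantile normalization, with normexp correction and without scaling. Between secretory stage and maturation the difference was 0.31 (95% interval -0.01 to 0.63, adjusted p = 0.0835). It passed with median scaling (0.53, adjusted p = 0.00738) and without scaling (0.76), and it was 0.16 within the shared scan. It also passed without secretory replicate 1, the highest of its stage (0.39, adjusted p = 0.0396).

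Sdha rose from the cervical loop onward. Its levels were 3.60, 3.78, 3.92, 4.09 and 4.55 in the cervical loop. They were 4.32, 4.68, 4.98, 4.72 and 4.52 in the secretory stage and 4.87, 5.13, 5.23, 5.15 and 4.90 in maturation. Neighbouring stages overlapped, but the cervical loop and maturation arrays did not. The secretory stage stood 0.66 above the cervical loop (SE 0.17, adjusted p = 0.00379; 0.22 and not past the threshold without scaling). Maturation stood 1.07, or 2.09-fold, above it, with means of 5.06 ± 0.16 and 3.99 ± 0.36 (SD, n = 5 each; adjusted p = 6.04e-05). The step from secretory stage to maturation, 0.41, was at the threshold (adjusted p = 0.0490). It missed the threshold with quantile normalization (0.29, adjusted p = 0.113), and it was 0.24 within the shared scan. In the fit of the paired arrays it passed (adjusted p = 0.00568). It was lost on leaving out any one of 9 arrays: secretory replicates 1, 2, 4 and 5, maturation replicates 2, 3 and 4, or cervical loop replicates 3 and 4 (0.33 to 0.43, adjusted p up to 0.125).

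B2m was close in the cervical loop and the secretory stage and higher in maturation. Its levels were 4.58, 5.78, 4.93, 4.73 and 5.39 in the cervical loop. They were 5.27, 4.82, 5.27, 4.93 and 4.80 in the secretory stage and 5.55, 5.40, 5.84, 5.61 and 5.35 in maturation. Cervical loop arrays spread over 1.20, a 2.30-fold span that enclosed the secretory arrays. Maturation exceeded the secretory stage by 0.53, or 1.45-fold, with means of 5.55 ± 0.19 and 5.02 ± 0.24 that did not overlap (SD, n = 5 each; adjusted p = 0.0327). That call did not hold with quantile normalization (0.47, adjusted p = 0.0646), and the difference within the shared scan was 0.23. It was also lost without any one of maturation replicates 1, 3 and 4 or secretory replicates 2, 4 and 5 (0.46 to 0.53, adjusted p up to 0.0828), and with the replicate number as a block over all 15 arrays (adjusted p = 0.0529). In the fit of the paired arrays alone it passed (adjusted p = 0.00219). Maturation exceeded the cervical loop by 0.47, which missed the threshold (95% interval 0.04 to 0.90, adjusted p = 0.0554). Without cervical loop replicate 2, the highest array of that stage, it was 0.64 and passed (adjusted p = 0.00496), as it did without replicate 5 (0.54, adjusted p = 0.0376) and with median scaling (0.91, adjusted p = 0.00296). Cervical loop and secretory stage differed by -0.07 (95% interval -0.50 to 0.36), a sign that turned with median scaling (0.15) and without cervical loop replicate 2 (0.11).

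Gusb had the closest stage means and the widest spread within a stage. Its levels were 1.82, 3.23, 2.35, 2.51 and 3.57 in the cervical loop. They were 2.74, 3.15, 2.97, 2.77 and 3.10 in the secretory stage and 2.72, 2.76, 2.73, 2.43 and 2.42 in maturation. The cervical loop arrays covered a 3.37-fold span around those of both later stages, which covered 1.33-fold and 1.26-fold. Means were 2.69 ± 0.70, 2.95 ± 0.19 and 2.61 ± 0.17 in cervical loop, secretory stage and maturation (SD, n = 5 each). No comparison passed the threshold in the fit of all arrays: the secretory stage differed from the cervical loop by 0.25 (95% interval -0.28 to 0.79), maturation from the secretory stage by -0.33 (-0.87 to 0.20) and from the cervical loop by -0.08 (-0.62 to 0.45). The last difference was 0.36 with median scaling, 0.05 without cervical loop replicate 2 and 0.14 without replicate 5. The first was 0.03 without cervical loop replicate 1 and 0.47 without replicate 5 (adjusted p = 0.913 and 0.0768). Without scaling the first was -0.19 and the second 0.11. In the fit of the paired arrays, which leaves out the cervical loop, Gusb was lower in maturation than in the secretory stage (difference -0.33, adjusted p = 0.0367). Of all features tested, 80.2% had a smaller SD within stages than Gusb, and 92.0% of the features in the same decile of signal did.

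**Figure D1:**
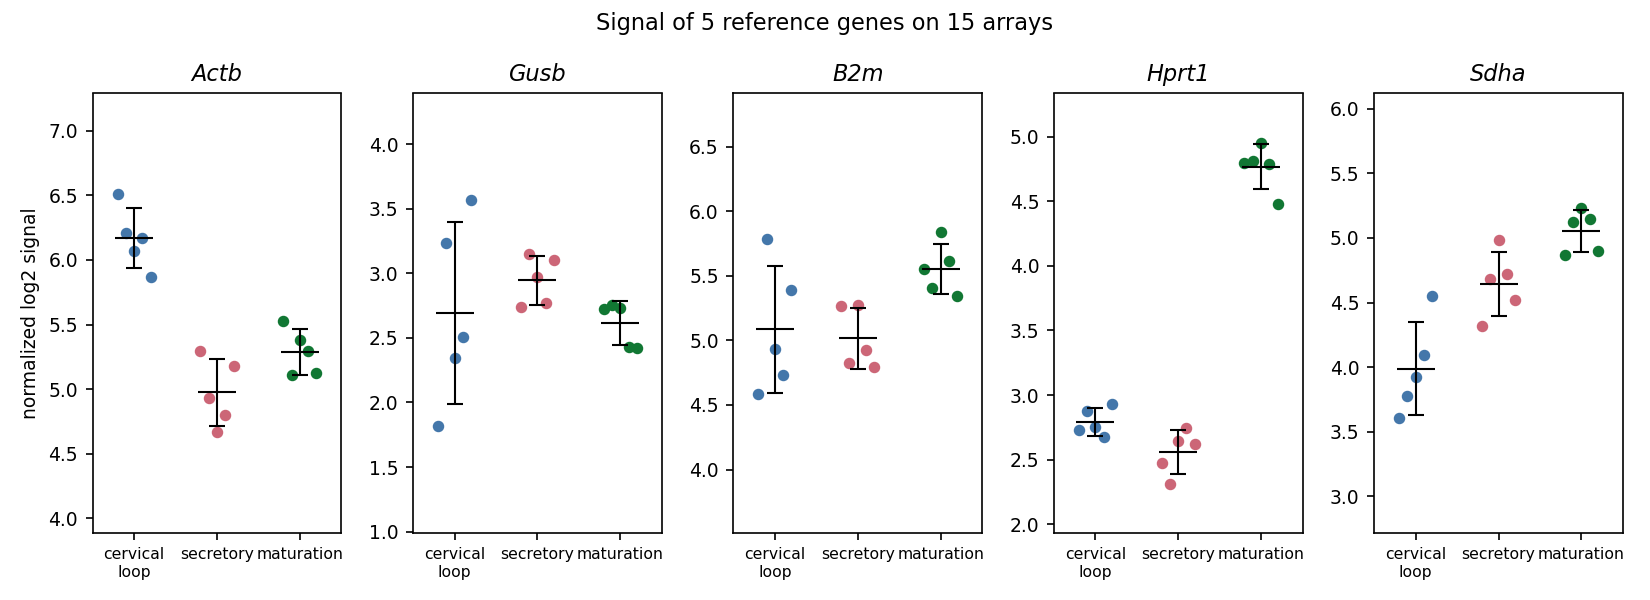
Normalized log2 signal (scaled to the 75th percentile of each array) of the 5 genes, with 1 point per array, replicates 1 to 5 from left to right, and black bars for mean and SD. The panels have different offsets but the same height in log2 units. Hprt1 in maturation, at 4.48 to 4.95, stands apart from the other stages, and the cervical loop arrays of Gusb run from 1.82 to 3.57.

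Gusb, B2m and Sdha spread most in the cervical loop. The SD in the cervical loop, secretory stage and maturation was 0.70, 0.19 and 0.17 for Gusb, 0.49, 0.24 and 0.19 for B2m, and 0.36, 0.25 and 0.16 for Sdha. For Actb it was 0.23, 0.26 and 0.18, and for Hprt1 0.11, 0.17 and 0.17, so neither was most variable in the cervical loop. Cervical loop replicate 1 had the highest Actb level of its stage and the lowest levels of Gusb, B2m and Sdha. Replicate 5, the only cervical loop array of its scan, had the lowest Actb level and the highest levels of Gusb, Sdha and Hprt1. Without replicate 5 the SD of Gusb was 0.59 and that of Sdha 0.21, and without replicate 1 they were 0.58 and 0.34. The part of the scan in this spread was not tested.

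Over the 3 comparisons, calls of the 5 genes were about as frequent as those of other features. Of 28863 features tested, 58.1% differed between secretory stage and cervical loop, and 2 of the 5 genes did: Sdha was higher, as were 21.4% of features, and Actb lower, as were 36.7%. Between maturation and secretory stage it was 59.5% of features and 3 of the 5 genes (Hprt1, B2m and Sdha, all higher, against 25.1% of features higher and 34.4% lower). Between maturation and cervical loop it was 63.2% and 3 genes (Hprt1 and Sdha higher, against 20.6% of features, and Actb lower, against 42.7%). The arrays of the stages did not overlap for 1, 2 and 3 of the 5 genes in these comparisons, against 39%, 45.8% and 45% of features. The medians of the 5 differences were -0.07, 0.41 and 0.47 in these comparisons, against -0.19, -0.12 and -0.28 for all features. In the F test among the 3 stages 4 of the 5 genes passed, all but Gusb (adjusted p = 0.429), and 83% of all features did.

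The general shift depended on how arrays were scaled. Median scaling moved the median of all features from -0.19 to 0.03 between secretory stage and cervical loop, from -0.12 to 0.10 between maturation and secretory stage, and from -0.28 to 0.16 between maturation and cervical loop. Relative to the median of all features, Actb differed by -0.999, 0.43 and -0.60 in these comparisons, Gusb by 0.44, -0.21 and 0.19, and B2m by 0.13, 0.66 and 0.74. Hprt1 differed by -0.04, 2.33 and 2.25, and Sdha by 0.85, 0.53 and 1.34. In both comparisons with maturation Hprt1 had the largest difference of the 5 genes on this scale too. Between secretory stage and cervical loop it had the smallest on this scale, where B2m had the smallest before (-0.07).

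**Figure D2:**
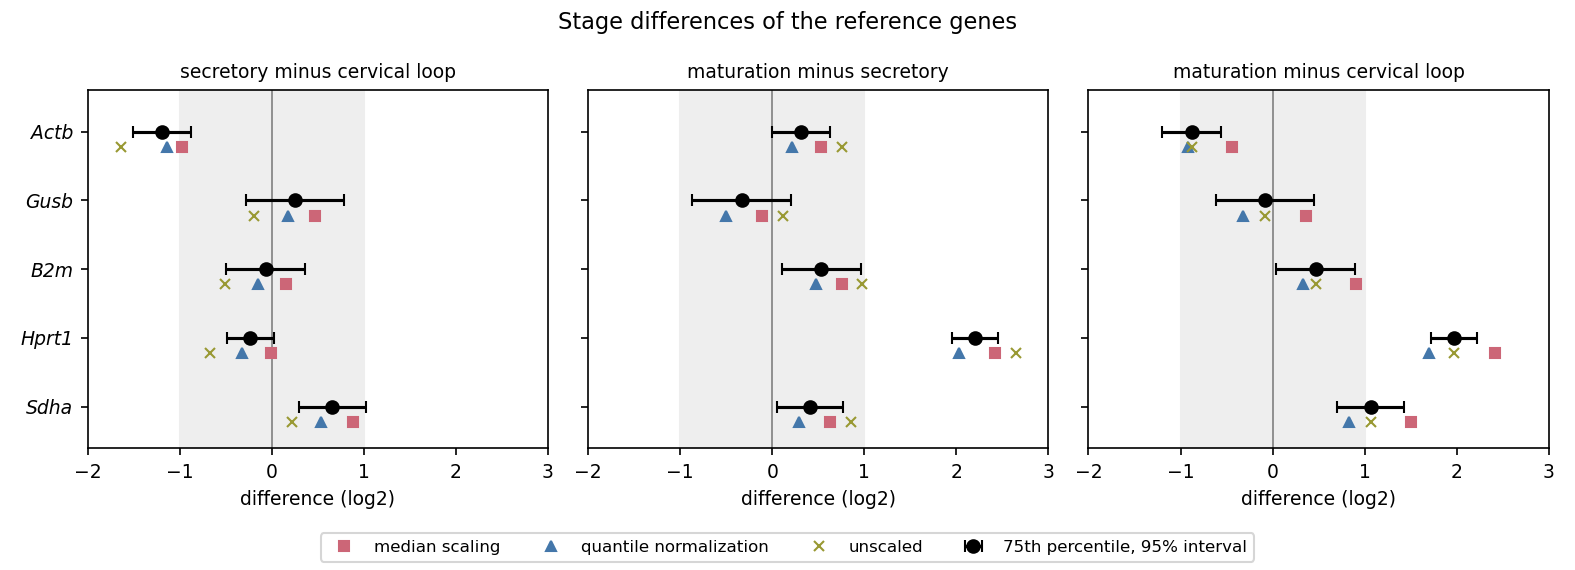
Stage differences on the log2 scale for the 5 genes in each comparison. Black points with bars give the difference and 95% interval with arrays scaled to the 75th percentile, coloured marks the difference with median scaling, quantile normalization or no scaling, and the grey band runs from -1 to 1. The differences of Hprt1 in maturation, 1.97 and 2.20, lie beyond the band under every scaling drawn, and those of Gusb lie within it.

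A reference gene is of use where a difference of a set size can be excluded, and a missed threshold does not show that. The 95% intervals (not adjusted for the number of features) of all 3 comparisons lay between -1 and 1 for Gusb and B2m, against 29.3% of all features. These intervals use a spread pooled over the 3 stages, but the cervical loop SD was 0.70 for Gusb and 0.49 for B2m. In the secretory stage and maturation it was 0.19 and 0.17 for Gusb and 0.24 and 0.19 for B2m. Pooling thus narrows their intervals against the cervical loop. Intervals from separate spreads were not computed, so the wider margin is shown only under pooling. None of the 5 genes had all 3 intervals between -0.5 and 0.5, a criterion met by 795 features or 2.75%. Under other settings these counts changed: with median scaling none of the 5 genes met the wider margin (30.4% of features did), with quantile normalization only B2m (36.4%), with normexp correction only B2m (69.3%), and without scaling only Gusb (16.7%). Single intervals inside the narrower margin were those of B2m (-0.50 to 0.36) and Hprt1 (-0.48 to 0.02) between secretory stage and cervical loop, where 15% of features met it. That of B2m ended at the margin and rests on a pooled spread below its cervical loop SD of 0.49. Whether B2m stays inside without pooling was not computed. Neither comparison with maturation had such an interval among the 5 genes, against 12.8% of features between maturation and secretory stage and 13% between maturation and cervical loop.

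The order of the 5 genes by the range of their 3 stage means was Gusb (0.33), B2m (0.53), Sdha (1.07), Actb (1.19) and Hprt1 (2.20). Hprt1 had the widest range under all 5 scalings, from 1.99 with normexp correction to 2.65 without scaling. Gusb or B2m had the narrowest: 0.47 and 0.91 with median scaling, 0.50 and 0.47 with quantile normalization, and 0.19 and 0.98 without scaling. Sdha and Actb, close to each other, exchanged places with median scaling (1.51 and 0.97). Of all features, 8.73% had a smaller range than Gusb, 21.1% than B2m, 58.6% than Sdha and 65.1% than Actb. Among features in the same decile of signal as each gene, these shares were 12.7%, 30.1%, 75.2% and 80.3%. By the SD within stages the order was the reverse at both ends, with Hprt1 lowest at 0.15 and Gusb highest at 0.43. Actb, Sdha and B2m lay between them at 0.23, 0.27 and 0.34.

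**Figure D3:**
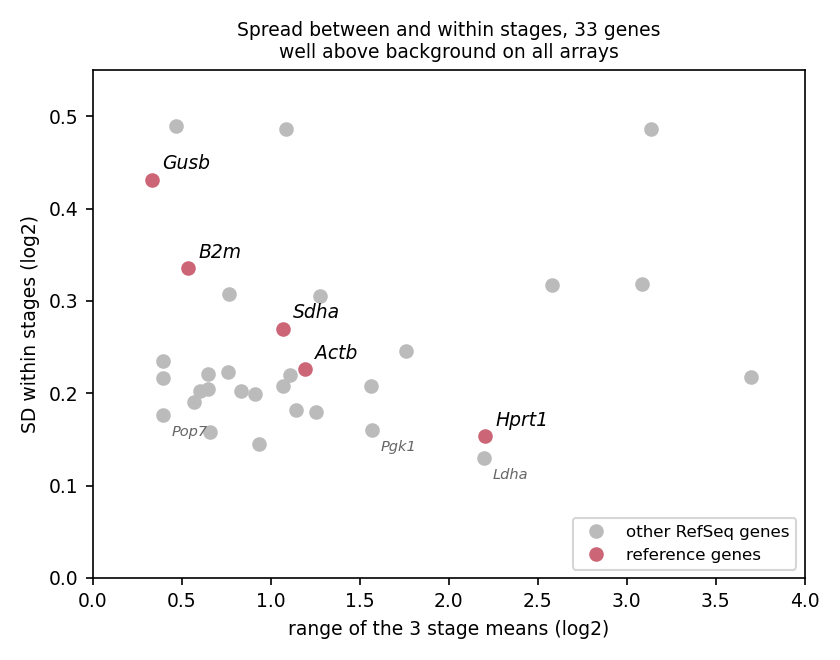
Range of the 3 stage means (horizontal, log2) against the pooled SD within stages (vertical, log2) for the 33 RefSeq genes well above background on all 15 arrays. Gusb lies at the upper left (0.33 and 0.43) and Hprt1 at the lower right (2.20 and 0.15).

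The ratio of 2 genes measured on the same array is free of the array's scaling, and this is also how reference genes are compared in PCR. All 10 pairs were compared between stages with two-sided exact permutation tests of 5 against 5 arrays, adjusted over the 30 tests by Benjamini-Hochberg. The smallest p such a test can give is 0.00794, which became 0.0140 after adjustment over these 30 results. The tests took the arrays as unpaired, although same-numbered maturation and secretory arrays deviated together. Tests of the ratios that keep this pairing were not run. Of the 30 comparisons, 22 passed: 6 of 10 pairs between secretory stage and cervical loop, 7 between maturation and secretory stage, and 9 between maturation and cervical loop. In 17 of the 30 the arrays did not overlap. These counts were near those of other genes: the 22 are 73.3% of the ratios, against 71.0% at an unadjusted exact p under 0.05 among 1134 such comparisons of 28 other RefSeq genes, and the 17 are 56.7%, against 57.8%. No pair was without a difference in at least 2 of the 3 comparisons. The same 22 passed with quantile normalization and with normexp correction.

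The Actb to Hprt1 ratio changed most. It was lower in maturation than in the cervical loop by 2.85 on the log2 scale (difference -2.85), with no overlap (exact permutation test, adjusted p = 0.0140), and in the other comparisons it differed by -0.96 and -1.89. The Gusb to Hprt1 ratio was lower in maturation by 2.54 against the secretory stage (difference -2.54, exact adjusted p = 0.0140). The Actb to Sdha ratio differed by -1.95 between maturation and cervical loop and by -1.85 between secretory stage and cervical loop (exact adjusted p = 0.0140 each).

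The ratios that held best were those of B2m with Sdha and of Gusb with B2m. The SD of the B2m to Sdha ratio over 15 arrays was 0.47, and its stage means ranged over 0.72. The difference between maturation and secretory stage was 0.12 (exact permutation test, adjusted p = 0.517), while the secretory stage and the cervical loop differed by -0.72 (exact adjusted p = 0.0325). Maturation and cervical loop differed by -0.60 (exact adjusted p = 0.0227). For Gusb and B2m the SD was 0.48, and maturation was lower than the secretory stage by 0.87 (difference -0.87, exact adjusted p = 0.0140). Against the cervical loop the difference in maturation was -0.55 (exact adjusted p = 0.0227). Actb to Sdha did not pass between maturation and secretory stage (-0.10, exact adjusted p = 0.722), nor did B2m to Hprt1 between secretory stage and cervical loop (0.16, exact adjusted p = 0.468). With 5 arrays a stage such a result does not show that a ratio is constant.

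The mean SD of a gene's ratios with the other 4, known as the M value in reference gene selection, was 0.63 for B2m, 0.72 for Sdha, 0.77 for Gusb, 0.95 for Actb and 1.02 for Hprt1 over the 15 arrays. Within single stages the order was another one. Hprt1 then had the lowest M value of the 5 in each stage, 0.41 in the cervical loop, 0.30 in the secretory stage and 0.14 in maturation, and Actb the highest, 0.61, 0.39 and 0.20. The M values of all 5 genes were lowest in maturation (0.14 to 0.20) and highest in the cervical loop (0.41 to 0.61). These values are descriptions, as each gene's M value shares its ratios with the others.

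**Figure D4:**
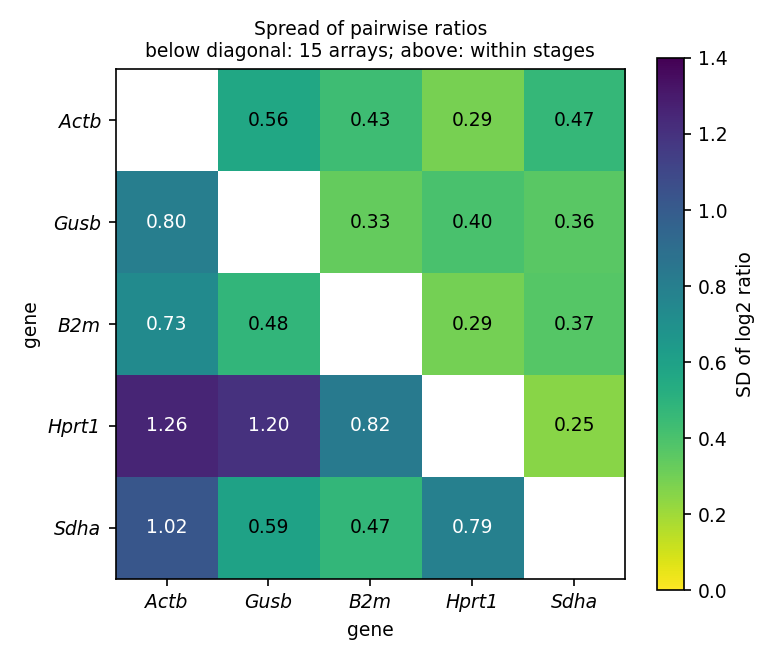
SD of the log2 ratio of each pair of genes, over all 15 arrays below the diagonal and pooled within stages above it. Ratios with Hprt1 spread over 0.79 to 1.26 across all arrays and over 0.25 to 0.40 within stages.

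To see what each choice of reference does, the arrays were scaled to one gene's signal in place of the 75th percentile and the fit across all features was repeated. The share of higher calls then depended on the gene. Between maturation and cervical loop, scaling to Actb called 15360 features higher and 2887 lower, so 84.2% of calls were higher. Scaling to Sdha called 1071 higher and 23712 lower (4.32% higher), scaling to Hprt1 457 and 27503, scaling to B2m 1940 and 15051, and scaling to Gusb 3333 and 5919. The 75th percentile had given 5936 and 12319, or 32.5% higher. Scaling to a gene shifts all features of an array alike, so the direction of these splits restates the gene's own stage difference. With Actb as reference the median of all features was 0.60, and Actb relative to that median had differed by -0.60. The numbers of calls depend also on the gene's spread within a stage, which is carried into every feature.

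Between secretory stage and cervical loop the split also turned. With Actb 94.7% of the calls were higher in the secretory stage, with Hprt1 55.2%, with B2m 41.3%, with Gusb 20.7% and with Sdha 8.94%, against 36.8% with the 75th percentile. Between maturation and secretory stage the share was 72.2% with Gusb, 22% with Actb, 17.6% with Sdha, 13.4% with B2m and 1.11% with Hprt1, against 42.2%. Scaling to Gusb gave 8211 to 10321 calls per comparison, the fewest of the 5 genes except between secretory stage and cervical loop, where B2m gave 9465. Gusb also had the widest SD within stages (0.43), so its low counts do not mark a better reference. The mean of the 5 genes as reference gave 45.9%, 11.7% and 11.7% higher calls in the order secretory stage against cervical loop, maturation against secretory stage, and maturation against cervical loop. Other scalings over all features moved the split too: the shares of higher calls were 53.8%, 57.8% and 61.8% with median scaling, 46.0%, 49.2% and 45.7% with quantile normalization, and 13.4%, 77.8% and 31.3% without scaling. These counts describe what the choice of reference does to the calls and do not show which reference is right.

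**Figure D5:**
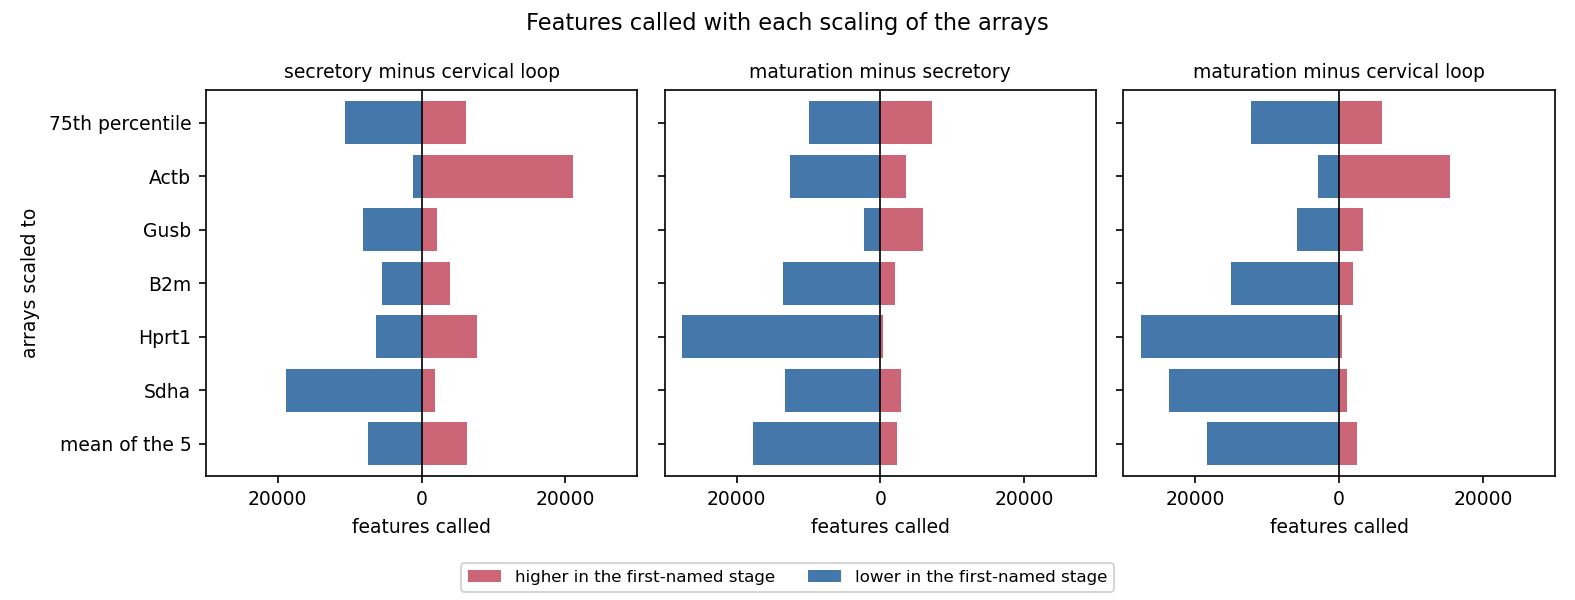
Features called higher (right, red) or lower (left, blue) in the first-named stage with arrays scaled to the 75th percentile, to each gene or to the mean of the 5. In the right panel the bars reach 15360 features to the right for Actb and 27503 to the left for Hprt1.

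Averaging several genes is the usual remedy, and the means of all subsets of the 5 genes were described without a test, since the best ones are picked by their values. Among pairs, the mean of Gusb and B2m had the narrowest range of stage means (0.19), with an SD within stages of 0.35. With median scaling the narrowest pair was Actb and Gusb (0.25). The mean of Actb and Sdha, which changed in opposite directions from the cervical loop to the secretory stage, ranged over 0.36 and had the smallest SD within stages (0.09). The mean of Actb, Gusb and Sdha ranged over 0.13 with an SD of 0.17. With median scaling the ranges of these 3 means were 0.63, 0.58 and 0.48, and with quantile normalization 0.016, 0.30 and 0.14. The mean of all 5 genes ranged over 0.63, and over 0.23 with Hprt1 left out. These were 0.95 and 0.58 with median scaling and 0.50 and 0.14 with quantile normalization.

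Of 25 other genes in common use as references, 4 were named on the array: the ribosomal protein genes Rpl13a and Rplp1 and the glycolytic genes Pgk1 and Ldha. None of 26 partners of the 5 genes, in the cytoskeleton, complex II, purine salvage, antigen presentation or the lysosome, was named. Both glycolytic genes rose in maturation, Ldha by 2.20 and Pgk1 by 1.57 over the secretory stage (adjusted p = 4.30e-10 and 3.59e-08), and their ranges of stage means, 2.20 and 1.57, were wider than that of Sdha. Rpl13a had a range of 0.40 with an SD within stages of 0.22. It was lower in maturation than in the cervical loop (difference -0.40, adjusted p = 0.0263) and did not pass in the other comparisons. Rplp1 had a range of 0.66 and passed in all 3 comparisons. Hsp90ab1, a cytosolic chaperone gene of the same probe set that was added after its values were seen, had a range of 0.65 and an SD of 0.20.

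Among the 33 RefSeq genes well above background on all arrays, the 5 with the narrowest range were Gusb (0.33), Pdk3 (0.40), Rpl13a (0.40), Pop7 (0.40) and P2rx2 (0.47). Pop7, which encodes a subunit of RNase P, had an SD within stages of 0.18, less than that of Gusb. B2m was the 6th in this order, Sdha the 17th, Actb the 22nd and Hprt1 the 29th. These genes were ranked by the values given, so their ranges are a description. Of the 32 other RefSeq genes tested, those with the most similar course over the 15 arrays were Enpp1 for Hprt1 (Pearson r = 0.98), Magoh for Actb (0.97), Ndfip2 for Sdha (0.94), Pdcd10 for B2m (0.78) and Ndfip1 for Gusb (0.26). The arrays share their stages and scaling, and these correlations carry no test.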

How the data were processed

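Total RNA was measured on 15 one-colour arrays. Agilent Feature Extraction 11.0.1.1 is the software named in the submitters' processing notes. The deposited scanner files hold, per the file headers, spot intensities on a linear scale, with background subtracted in the processed signal. A deposited table of log2 values covers 38237 probes but none of the 5 genes. It served for counts only, and how it was normalized is not given. Control spots and 107 to 276 flagged spots per array were left out; no spot was saturated. Spots of a probe were averaged, and log2 values were scaled to each array's 75th percentile. Where 50% or more of a probe's spots were flagged as well above background, the probe passed on that array. Testing was limited to the 28863 features that passed on every array of some stage, and a gene's brightest probe stood for it. Accessions were matched without versions to RefSeq transcripts of GRCr8, for names only (39 of 62). One limma 3.58.1 fit (lmFit and eBayes, R 4.3.3) covered the 15 arrays, with Benjamini-Hochberg adjustment over all features and a threshold of 0.05. Its recovery of known differences was tested on simulated data. Pair ratios were tested in Python 3.11.15 with pandas 2.3.3 and numpy 2.4.6. Genes named are the 5 members, the listed references, the most similar RefSeq gene of each and the 5 narrowest ranges. Members and lists were chosen with earlier results of these data known. The number of arrays limits the precision. Alternatives were other scalings, normexp correction (offset 50, on the median signal, as no mean signal was given), filters, blocks, left-out arrays and stages from titles. For an alternative limma fit, but not for the pair ratios, same-numbered maturation and secretory arrays were taken as pairs. The reason was that all 5 correlations of their deviations from the stage means exceeded 0.1 (0.11 to 0.29, against a median of -0.05 over arrays with different numbers). For the cervical loop 1 of 5 did with the secretory stage (-0.11 to 0.11) and 2 of 5 with maturation (-0.004 to 0.25). Those arrays were not taken as pairs, which does not show that they are unpaired. The values without scaling, within the shared scan and from the paired arrays were alternatives chosen after seeing the data.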

Additional observations from a re-analysis of the deposited data

Results flagged for a closer look

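Over 30 sets of 5 arrays (10 named genes of the 12-probe set in 3 stages), 1 array stood apart. Rpl13a was at 6.53 in maturation replicate 5, against a stage median of 6.97, and its gap to the next array divided by the stage's range was 0.82, above Dixon's critical value of 0.71 for 5 samples. Chance alone gives about 1 such array in 20 independent sets, but these sets share their arrays. Maturation replicate 5 was the only maturation array of its scan. It was also the lowest of its stage for Gusb, B2m and Hprt1, though not for Actb and Sdha. The part of the scan was not tested. None of the 15 sets of Actb, Gusb, B2m, Hprt1 and Sdha met this criterion.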

How the results depend on the processing

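The rise of Hprt1 in maturation, the fall of Actb from the cervical loop and the higher Sdha in maturation than there kept direction and call. This held with median scaling, quantile normalization, normexp correction, no scaling and each filter. It also held with the replicate number or the scan (random) as a block, and with each array left out. The 5 genes were not fitted with arrays scaled to one of them, but their ratios give the direction. Relative to Hprt1, Sdha was lower in maturation than in the cervical loop (Hprt1 to Sdha 0.91), and relative to Actb, Gusb and B2m higher. Actb was lower relative to each other gene, but against Gusb this did not pass (-0.80, exact permutation test, adjusted p = 0.124). With stages taken from the titles Hprt1 differed by -1.28 between maturation and secretory stage, by 1.51 between secretory stage and cervical loop and by 0.23, no longer past the threshold, between maturation and cervical loop. These title stages mix both tissue labels, and the SE of Hprt1 was 0.48, against 0.12 with the tissue labels. In replicate 1, where title and label agree, Hprt1 was at 4.80 in maturation and 2.47 in the secretory stage.

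Between secretory stage and cervical loop, Gusb differed by -0.19 without scaling, B2m by 0.15 with median scaling and Sdha by 0.22 without scaling. Hprt1 passed the threshold there at -0.32 with quantile normalization, -0.29 with normexp correction and -0.67 without scaling, but was at -0.011 with median scaling. Between maturation and secretory stage, Actb passed at 0.53 with median scaling and 0.76 without scaling, and Gusb differed by 0.11 without scaling. B2m no longer passed with quantile normalization (0.47), normexp correction (0.47) or the scan as a random block (0.51). Nor did Sdha with quantile normalization (0.29), normexp correction (0.28), no filter on dim probes (0.41) or the scan as a random block (0.40). With the scan as a fixed block and within the shared scan, B2m differed by 0.23 and Sdha by 0.24. The fixed block and the shared scan rest on 1 maturation array, assumed to vary like the others. They are given as values and say nothing on stability. Between maturation and cervical loop, Gusb differed by 0.36 and B2m by 0.91, now past the threshold, with median scaling. With title stages, in the order secretory stage against cervical loop, maturation against secretory stage and maturation against cervical loop, Gusb differed by -0.078, 0.33 and 0.25, B2m by 0.41, -0.42 and -0.010, and Actb and Sdha by -0.22 and -0.19 in the second. The causes were not tested.

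Features differing between maturation and secretory stage numbered 5831 with the scan as a block, 3393 within the shared scan and 0 with title stages, which gave 11575 between maturation and cervical loop and 14131 in the F test. Scaling to Gusb gave 10321, 8211 and 9252 in the same order and 14816 in the F test, scaling to B2m 9465 in the first, and scaling to Hprt1 27941 and 27960 in the others. With each array left out in turn, maturation against secretory stage ranged from 0.24 to 0.39 for Actb, 0.46 to 0.60 for B2m and 0.33 to 0.49 for Sdha, so that calls at the threshold changed. Maturation against cervical loop ranged from 0.34 to 0.64 for B2m and -0.30 to 0.14 for Gusb, and secretory stage against cervical loop from -0.19 to 0.11 for B2m.

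With the replicate number as a block over all 15 arrays, B2m between maturation and secretory stage had an adjusted p of 0.0529 (difference 0.53), no other call of the 5 genes changed, and 17135, 17559 and 18483 features differed. Pairing the 10 maturation and secretory arrays alone, with the replicate block, gave 19229 features. Gusb then passed (-0.33), and no other call of the 5 genes changed. That fit also leaves out the cervical loop arrays. The deposited series table and a second probe could not be used for the 5 genes.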

Other observations

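Of the 12 custom probes with 30 spots, 2 carry accessions that matched no gene. One of them, CUST_7_PI421900130, rose by 4.47 between secretory stage and maturation, 22.2-fold, from 3.73 ± 0.75 to 8.20 ± 0.13 (SD, n = 5 each; limma, adjusted p = 9.26e-08), and stood 36.8-fold above the cervical loop. The other, CUST_3_PI421900130, fell by 1.47 from cervical loop to secretory stage (limma, adjusted p = 6.25e-06). Over the 10 named genes of the set, M values computed from all of them were lowest for B2m (0.62), Hsp90ab1 (0.64) and Rpl13a (0.65), and highest for Hprt1 (0.93).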
